A study of Macaca fascicularis with 6 samples.

Results

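The cells described here are the *PRG4*-positive cells of pre-transplant cyiPS-Cart, the cartilage organoid of the cynomolgus monkey as it was before surgery. They were selected on *PRG4* itself, as the 610 of 3527 pre-transplant cells with reads of that gene, and they were set against the 2917 cells of the same organoid sample without such reads. The first deposited matrix holds 6027 cells, made up of these 3527 and of 2500 cells of the undifferentiated iPS cells (cyiPSC) that went through the same library. A second matrix holds 1280 cells, with 320 from each of 4 samples: the organoid before and after transplantation, native joint cartilage (cyAC), and repair tissue of fibrous kind from defects that received no organoid (cyFT). Transcriptomes were read by TAS-Seq, a bead-based single-cell method that gives reads per gene and cell.

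Pre-transplant cyiPS-Cart and cyiPSC both come from the line 1466A1, which is 1 line with an EGFP reporter gene driven by a constitutive promoter. The organoids were grown with BMP2, TGFβ1 and GDF5, so every pre-transplant cell had been exposed to these factors whether or not it held *PRG4* reads. Post-transplant cyiPS-Cart had spent 4 months in chondral defects of the knee of allogeneic recipients, monkeys aged 3-4 years and labelled wild type, and cyAC and cyFT were wild-type tissue of monkeys of that age. How many animals each library pools is not given in the sources used here, and the methods describe the transplanted sites of a monkey as combined. Each condition is therefore 1 sample, cells of a sample are not replicates, and no test was run. Intervals are exact 95% intervals, binomial where a share is given and Poisson where reads were summed. They cover counting error only, and a count is a read, not a molecule.

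*PRG4* encodes lubricin, a large mucin-like glycoprotein that coats the cartilage surface and the synovial lining and lowers friction between them. In a joint it is made by chondrocytes of the superficial zone and by synovial lining cells, whereas chondrocytes of the deeper zones make type II collagen and aggrecan with little lubricin. Cells of the superficial zone lie in a matrix of thin collagen fibrils and small leucine-rich proteoglycans, a family of secreted proteins that bind collagen fibrils and growth factors.

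*PRG4* reads were held by 17.3% of the pre-transplant cells (16.1 to 18.6). In cyiPSC of the same library, a cell type that should lack the gene, 5 of 2500 cells held them (0.200%, 0.0650 to 0.466), at a median depth of 143075 reads per cell against 59249 in the organoid cells. The organoid share thus lay far above that of cyiPSC. The lowest count above 0 was 27 reads in cyiPSC, so low counts are absent there too. The cyiPSC share is therefore no measure of the raw background. At the edge of the rule there was a gap. No pre-transplant cell held between 1 and 21 *PRG4* reads, 7 positive cells held the lowest count of 22, and every cell just outside the rule held 0. The authors set counts taken for background to 0 in genes that reach high counts, so a cell listed at 0 may have held a few reads.

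Among the 610 positive cells the *PRG4* level was very uneven. The count per cell had a lowest value of 22, a median of 110 and a highest value of 5702 reads, and the quartiles were 50 and 292. Scaled to counts per 1000000 reads of the cell (CPM), the lowest, median and highest levels were 166, 1864 and 68334. Counts below 50 reads were held by 152 cells and counts of at least 100 reads by 52.6% of the cells. The 61 cells with most *PRG4* reads held 49.6% of the 166263 reads of the gene, while the 305 cells with fewest held 9.86%. Most *PRG4* RNA of the organoid was therefore read from few cells, at a summed level of 692 CPM (688 to 695) over all pre-transplant cells.

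**Figure D1:**
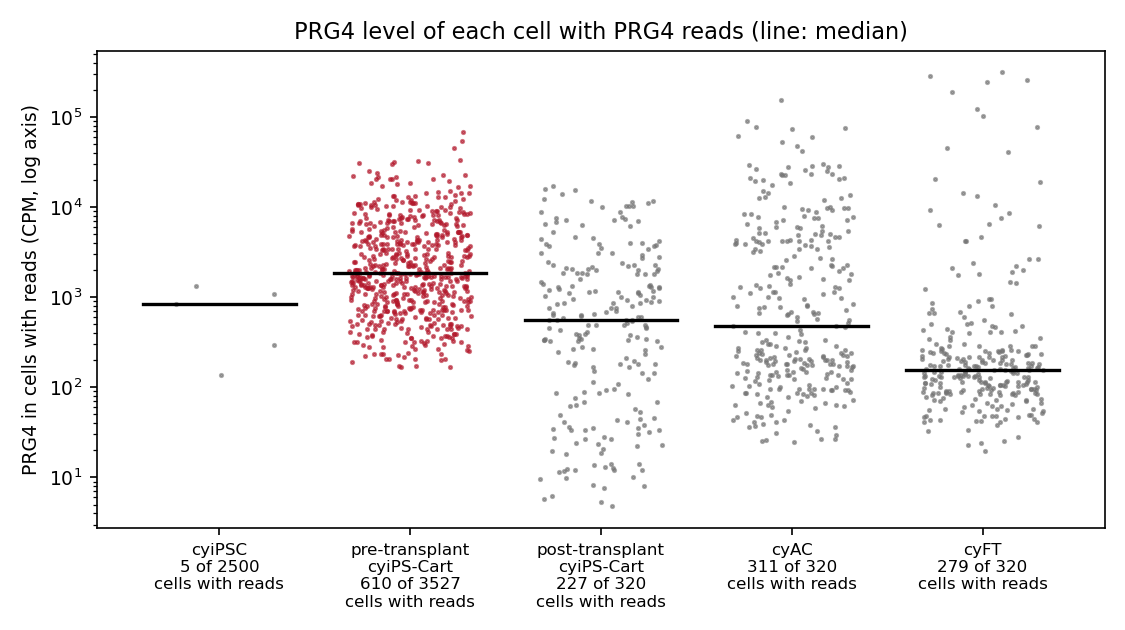
Each point is a cell with *PRG4* reads, placed by its *PRG4* level in CPM on a log axis, for cyiPSC and pre-transplant cyiPS-Cart of the first matrix and for 3 samples of the second matrix, with the median as a black line. The 610 pre-transplant cells span 166 to 68334 CPM with no cell below that floor, while the lowest cells of post-transplant cyiPS-Cart, cyAC and cyFT lie at 4.78, 24.9 and 19.8 CPM.

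The positive and negative cells differed little in technical measures. Reads per cell ranged from 10837 to 287583 with a median of 62099 in positive cells, and from 10360 to 330944 with a median of 58702 in negative cells. The median number of genes with reads was 3808.5 against 3781, and the median mitochondrial share of reads was 5.33% against 5.48%. The EGFP transgene, listed as GFP-polyA, had a median of 2384 CPM in positive and 2296 CPM in negative cells, so both groups carried the reporter of the donor line at a like level. When the pre-transplant cells were split by depth into 3 classes of equal size, the positive share was 16.4% in the shallowest, 15.7% in the middle and 19.8% in the deepest class. The median *PRG4* level of the positive cells fell over the same classes from 2650 to 1727 and 1393 CPM. A count of 22 reads is fewer CPM in a deeper cell. Thinning every cell to 30967 reads left out 353 shallower cells and kept all 565 of the remaining positive cells positive.

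*PRG4* was found almost only in cells that also made cartilage collagen. Of the 610 positive cells, 607 held reads of *COL2A1*, the type II collagen of hyaline cartilage. Among cells with *COL2A1* reads 18.6% were *PRG4*-positive, against 3 of 265 cells without them (1.13%, 0.234 to 3.27). *COL1A1*, the main chain of type I collagen of fibrous tissue and bone, went the other way. Cells with *COL1A1* reads were *PRG4*-positive in 9.27% (7.48 to 11.3) and cells without them in 20.2% (18.6 to 21.8).

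Taking both collagens together, 85.6% of the *PRG4*-positive cells held *COL2A1* and no *COL1A1*, 13.9% held both, and 1 cell held *COL1A1* alone. Of the *PRG4*-negative cells, 70.8% held *COL2A1* alone, 20.2% held both and 8.67%, which is 253 cells, held *COL1A1* alone. The group that only *COL1A1* marks was thus nearly absent from the positive cells, with 1 of its 254 cells (0.394%, 0.00997 to 2.17). The lowest *COL1A1* count above 0 was 277 reads, so that cells listed at 0 may have held fewer. *CILP*, which encodes cartilage intermediate layer protein, marked the opposite extreme: 209 of 485 cells with *CILP* reads were *PRG4*-positive (43.1%, 38.6 to 47.6), against 401 of 3042 without (13.2%).

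Clustering of all pre-transplant cells, run without *PRG4* among the genes, gave 5 clusters, which are called by number. The 2 largest, clusters 0 and 1 with 1337 and 1209 cells, were both 19.2% *PRG4*-positive and together held most of the positive cells (42.1% and 38.0% of them). Cluster 2, with 591 cells, *COL1A1*, *COL1A2*, *ECM1* and *CASP1* among its leading genes and a mean *COL1A1* level of 28365 CPM, held 11 positive cells (1.86%, 0.933 to 3.31). It made up 19.9% of the negative and 1.80% of the positive cells. The highest shares were found in cluster 3, led by *SPP1* and *SEMA3D*, with 88 of 309 cells (28.5%, 23.5 to 33.9), and in cluster 4, led by the mitotic genes *TOP2A* and *CENPF*, with 22 of 81 cells (27.2%, 17.9 to 38.2). Positive cells therefore occurred in every cluster and formed none of their own, but they lay near each other: of the 20 nearest neighbors of a positive cell 31.0% were positive, against 13.4% around a negative cell and 17.3% of all cells.

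**Figure D2:**
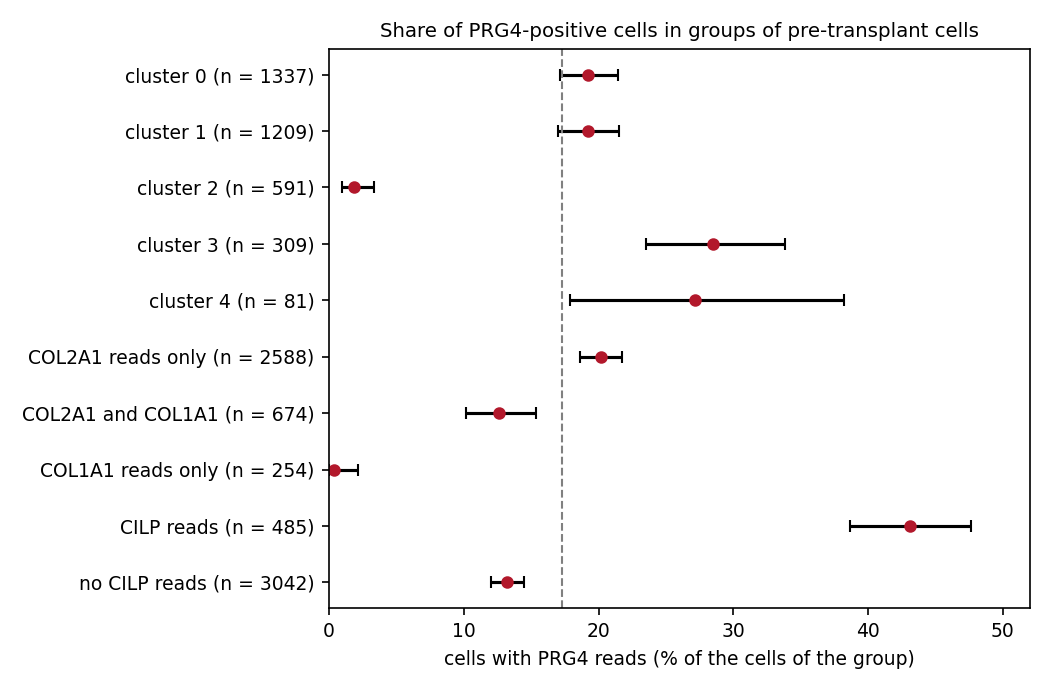
Points give the share of *PRG4*-positive cells, in % of the cells of a group, with exact binomial 95% intervals as bars, for the 5 clusters and for cells grouped by reads of *COL2A1*, *COL1A1* and *CILP*; the dashed line is the share of all pre-transplant cells, 17.3%. Cluster 2 and the cells with *COL1A1* reads only lie near 0, and the cells with *CILP* reads lie at 43.1%.

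Across genes, positive cells were compared with negative cells by the log2 ratio of mean CPM + 1, over the 3203 genes other than *PRG4* with at least 50 CPM in either group. Because *PRG4* chose the cells, these ratios describe the selected cells and carry no test. Most genes hardly moved. The median ratio was -0.06, the central 95% of genes lay between -0.40 and 0.40, and 1106 genes were higher and 2097 lower. Only 6 genes (0.187%) were at least 2-fold higher, namely *CILP*, *SPP1*, *ABI3BP*, *PRELP*, *MGP* and *DCN*, and 9 (0.281%) were at least 2-fold lower. At 1.5-fold, 33 genes (1.03%) were higher and 31 (0.968%) lower. A gene that reached 50 CPM only in the group where it is high had to differ, which holds for *CILP*, *EGR2*, *FGF18*, *EFEMP1*, *SLPI*, *ECM1*, *ANTXR2*, *PCSK1*, *CAP2* and *ID2*, and counts of list members below are descriptions for that reason too. The balance moved with the scaling, to 42 higher and 26 lower with edgeR's TMM factors and to 44 and 26 with the median of all genes set to 0, and at 2-fold to 9 and 5 and to 8 and 6. It moved further with the cells compared. Without the cells of cluster 2, 24 genes were higher and 13 lower at 1.5-fold, and 4 and 5 at 2-fold. With positive cells of at least 100 *PRG4* reads, 54 were higher and 54 lower at 1.5-fold. In the 320 cells of the second matrix, 151 were higher and 216 lower.

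**Figure D3:**
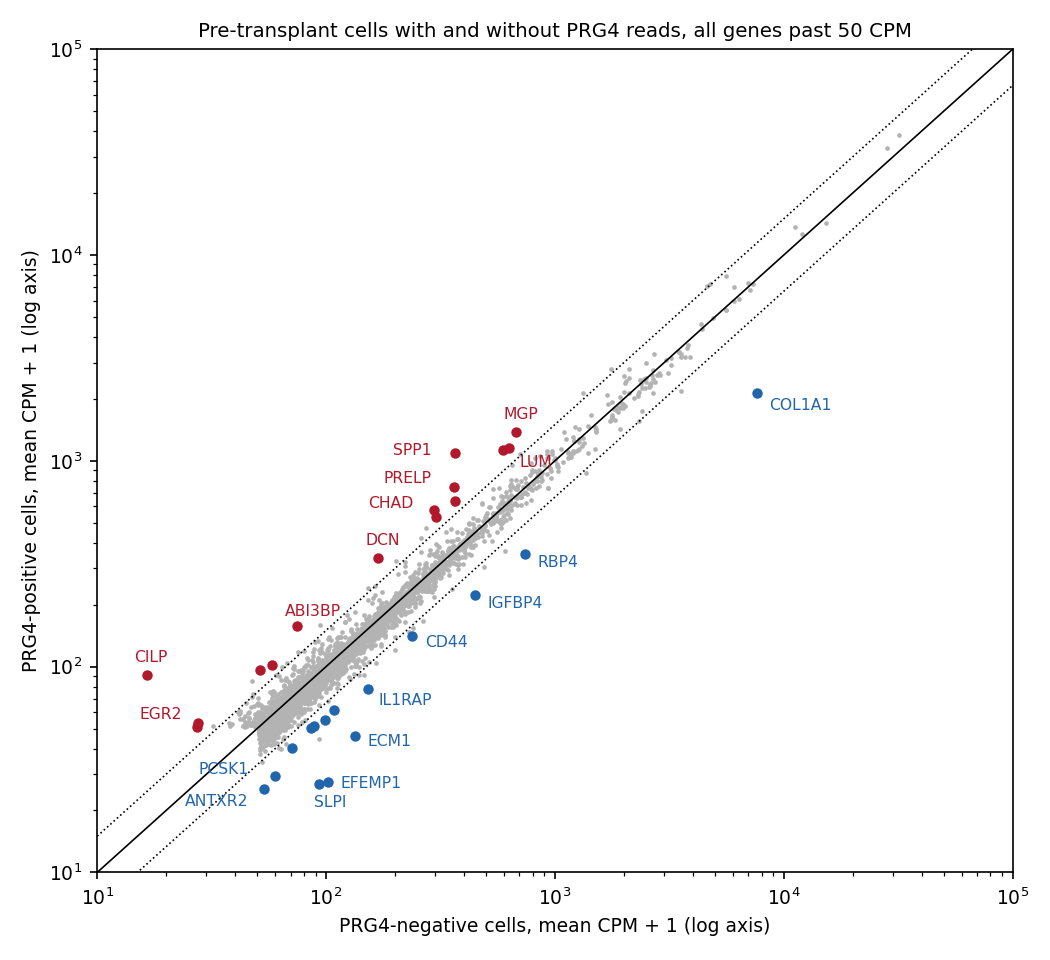
Each point is 1 of the 3203 genes, placed by its mean CPM + 1 in *PRG4*-negative cells (x axis) and *PRG4*-positive cells (y axis), both on log axes; the line marks equal levels, the dotted lines a 1.5-fold difference, and red and blue points the 15 genes with the largest ratio in each direction. Most genes lie along the line, *CILP* stands farthest above it and *COL1A1* lies far below it.

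*CILP*, a glycoprotein of the cartilage matrix that binds TGFβ1, had the largest ratio. Its level ran from 0 through a median of 0 to 2651 CPM in positive cells and from 0 through 0 to 1492 CPM in negative cells. Reads were found in 34.3% of positive cells (30.5 to 38.2) and 9.46% of negative cells (8.42 to 10.6), so that the gene was silent or below detection in most cells of both groups and the positive cells held it more often. The mean was 90.4 against 15.5 CPM, a log2 ratio of 2.47 or 5.55-fold. Over every alternative run the ratio stayed between 1.98 and 3.00.

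The small leucine-rich proteoglycans that passed the filter all had ratios above 0, although 6 of them stayed within 1.5-fold. All 13 genes of the list were among those the matrix holds, 11 passed 50 CPM, and all 11 had a ratio above 0, with a median of 0.50 against -0.06 over all genes; 5 of them were at least 1.5-fold higher, where 1.03% of all genes were. *PRELP*, a proteoglycan that tethers basement membranes to connective tissue, had a lowest, median and highest level of 0, 635 and 3205 CPM in positive cells and 0, 193 and 2857 CPM in negative cells. Its mean was 746 against 362 CPM (log2 ratio 1.04), and it was found in 96.4% against 78.5% of cells. The ranges overlapped fully, as for every gene named here, while the median of the positive cells lay far higher.

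Decorin (*DCN*), which binds collagen fibrils and TGFβ, had a median of 186 CPM in positive and 29.5 CPM in negative cells, with a highest level of 2926 and 2408 CPM. The mean was 337 against 167 CPM (1.01), and 79.2% against 55.4% of cells held it. Its ratio was 0.73 without cluster 2 and 0.53, within 1.5-fold, in the 320 cells of the second matrix. Chondroadherin (*CHAD*), a cell-binding protein of cartilage matrix, had medians of 399 and 129 CPM and means of 573 and 297 CPM (0.95). Lumican (*LUM*), which spaces collagen fibrils, had medians of 914 and 455 CPM and means of 1156 and 627 CPM (0.88). Mimecan (*OGN*) had means of 1077 and 700.0 CPM (0.62). By their medians, *DCN*, *CHAD* and *LUM* differed in the typical cell and not only in a few. The other members that passed stayed within 1.5-fold, from *BGN* at 0.08 to fibromodulin (*FMOD*) at 0.50, with 7949 against 5618 CPM for the latter.

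Genes of hyaline cartilage matrix showed smaller differences. Of the 5 listed cartilage collagens all passed and all had ratios slightly above 0, from 0.01 for *COL9A1* to 0.23 for *COL2A1*, and none reached 1.5-fold. *COL2A1* had a median of 31976 CPM in positive and 28813 CPM in negative cells and was found in 99.5% against 91.0% of them. Without cells that held *COL1A1* reads its ratio was -0.01. The cells left out include the 253 negative cells that held *COL1A1* and no *COL2A1*, so that this ratio had to fall. *ACAN*, which encodes aggrecan, the large proteoglycan that holds water in cartilage, had means of 3298 and 3546 CPM (-0.10).

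Of 24 other genes of cartilage matrix, 20 were listed and 16 passed, with a median of 0.29, and 3 were at least 1.5-fold higher and 0 lower, against 1.03% and 0.968% of all genes. Besides *CILP* these were *CLEC3A*, a C-type lectin of cartilage, with 2800 against 1752 CPM (0.68), and *UCMA*, a Gla protein first described in the upper zone of growth plate cartilage, with 7268 against 4758 CPM (0.61). Both were found in most cells of either group, *UCMA* in 97.7% against 83.0%. Without *COL1A1* cells their ratios were 0.48 and 0.35, which is less than 1.5-fold. *MATN3* (0.30), *HAPLN1* (0.25) and *SNORC* (0.19) lay within 1.5-fold, and the lowest ratio of the list was that of *CHI3L1*, a chitinase-like secreted protein, at -0.35, which turned to 0.21 without *COL1A1* cells.

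The list of superficial zone genes did not move as one. Of 20 genes, 18 were listed and 13 passed, with a median ratio of 0.07, and 2 were at least 1.5-fold higher and 1 lower, against 1.03% and 0.968% of all genes. Of these, *CILP* and *EFEMP1* passed 50 CPM only through the group where they are high. *CILP*, named for the intermediate layer of cartilage, is also counted in the list of cartilage matrix, so it does not mark the superficial zone alone. *ABI3BP*, a secreted matrix protein, was higher beside *CILP*, with a median of 74.8 CPM in positive cells against 0 in negative cells, a highest level of 2035 and 1737 CPM and means of 157 and 74.0 CPM (1.07). It was found in 71.8% against 49.3% of cells. *EFEMP1*, which encodes fibulin-3, a glycoprotein of elastic and basement membrane matrix, was the gene with the lowest ratio of all, at 26.5 against 101 CPM (-1.89) and in 26.7% against 47.9% of cells.

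Other genes of the superficial zone list were at nearly the same level in both groups. Clusterin (*CLU*) had means of 427 and 460 CPM (-0.11), the transcription factor *ERG* 73.7 and 73.1 CPM (0.01), and *THBS4* 730 and 675 CPM (0.11). *DPT*, dermatopontin, was at 807 and 639 CPM (0.34). *CREB5* and *FOXO1*, transcription factors of that zone, did not pass 50 CPM. Of 12 genes of the joint interzone, the embryonic cell layer from which the joint surface arises, 3 passed. The hyaluronan receptor *CD44* was at least 1.5-fold lower, at 139 against 237 CPM (-0.76), where 0.968% of all genes were. *GDF5* did not pass. Without *COL1A1* cells the ratio of *CD44* was -0.25.

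Of 15 genes of hypertrophy and mineralization, 4 passed, and *SPP1* and *MGP* were at least 1.5-fold higher, against 1.03% of all genes. *MGP* encodes matrix Gla protein, an inhibitor of calcification, and had a median of 629 CPM in positive and 171 CPM in negative cells, with a highest level of 25200 and 16124 CPM. The mean was 1386 against 675 CPM (1.04), with reads in 73.8% against 53.5% of cells. *SPP1*, osteopontin, had means of 1096 and 366 CPM (1.58) but medians of only 15.9 and 7.83 CPM, and its highest level was in a negative cell, at 112806 CPM against 82440 CPM in a positive one. The 5% of positive cells with most *SPP1* held 92.3% of its summed level, so that the mean rests on few cells, and in the 320 cells of the second matrix the ratio was -0.78. *COL10A1*, *MMP13*, *IBSP* and *SP7*, which mark hypertrophic cartilage and bone formation, did not pass.

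Among growth factors and their binding proteins, some were higher in positive cells. *INHBA*, which encodes the subunit of activin A, a ligand of the TGFβ family, had medians of 252 and 0 CPM and means of 1132 and 595 CPM (0.93), with reads in 58.9% against 39.0% of cells. *FGF18*, a growth factor that acts on chondrocytes, had means of 50.0 and 26.3 CPM (0.90), which is at the edge of the 50 CPM filter. *LTBP1*, which binds latent TGFβ in the matrix, had medians of 432 and 219 CPM and means of 535 and 302 CPM (0.82), and *ADAMTSL2*, a matrix protein that binds LTBP1, had means of 95.3 and 50.3 CPM (0.91). The genes around these did not follow. Of 12 genes of TGFβ ligands, receptors and binding proteins, 6 passed and *LTBP1* was the 1 at least 1.5-fold higher, where 1.03% of all genes were. None was past 1.5-fold downward. *TGFB1* was at 0.20 and *TGFB2* at -0.44.

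Of 13 genes of TGFβ signaling, 11 passed with a median of -0.02 and 0 past 1.5-fold in either direction. *TGFBI*, a TGFβ-induced matrix protein, was at 0.38. The inhibitory *SMAD7* was at -0.10, but at 0.15 without *COL1A1* cells and 0.29 in the second matrix. Of 26 genes of the BMP pathway 12 passed with a median of -0.02. The inhibitor of differentiation *ID2*, a target of BMP signaling, was the 1 past 1.5-fold, on the lower side, where 0.968% of all genes were. It passed 50 CPM only through the negative cells, with 49.4 against 85.2 CPM (-0.78), and was at -2.21 in the 320 cells of the second matrix. Of 24 genes of salt-inducible kinases and cAMP signaling 6 passed with none past 1.5-fold, and all had ratios below 0, as had 2097 of all 3203 genes, from -0.45 for *PRKAR2B* to -0.01 for *PRKACB*, which lies above the median of all genes, and *SIK3* was at 47.2 against 50.6 CPM (-0.10). Of 10 genes of the IGF system 6 passed. *IGFBP7* was higher, at 2130 against 1331 CPM (0.68), while *IGFBP4* and *IGFBP3* were lower, at 221 against 448 CPM (-1.01) and 366 against 603 CPM (-0.72). *IGFBP4* was found in 89.3% against 96.7% of cells with medians of 174 and 378 CPM, so that its difference, too, was one of the typical cell.

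The remaining genes among the 15 with the largest ratios upward were the transcription factor *EGR2* (52.4 against 26.5 CPM, 0.96), the secreted matrix protein *CCDC80* (638 against 364 CPM, 0.81) and the amino acid transporter *SLC36A2* (100.4 against 56.8 CPM, 0.81). *CCDC80* was found in 96.4% against 87.6% of cells, and *EGR2* in 27.0% against 21.7%. In the 320 cells of the second matrix the ratio of *EGR2* was 0.24 and that of *ADAMTSL2* 0.27. Of the immediate early genes, 10 of 19 passed, and *EGR2*, which passed only through the positive cells, was the 1 at least 1.5-fold higher, against 1.03% of all genes, with *FOS* at -0.22 and *JUN* at 0.16.

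The genes lower in positive cells fell into those that mark cluster 2 and those that were lower beyond it. *COL1A1* had a median of 0 in both groups, a highest level of 48535 CPM in positive and 89468 CPM in negative cells, and means of 2138 and 7631 CPM (-1.84, 3.57-fold lower). Reads were found in 14.1% of positive cells (11.4 to 17.1) and 28.9% of negative cells (27.2 to 30.5), and where they were found the mean was 15165 against 26436 CPM. Without the cells of cluster 2 its ratio was -0.39. *ECM1*, extracellular matrix protein 1, had means of 45.2 and 133 CPM (-1.54), and without cluster 2 its ratio turned to 0.05, as did that of *COL1A2*, from -0.69 to 0.12. All 3 are among the genes that lead cluster 2, so that leaving it out had to shrink their ratios.

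*EFEMP1*, *SLPI*, *RBP4*, *PCSK1* and *IGFBP4* kept most of their difference without cluster 2, with ratios of -1.63, -1.46, -1.34, -1.14 and -1.05. *SLPI*, a secreted inhibitor of serine proteases, had means of 25.8 and 91.8 CPM (-1.79) and reads in 18.0% against 28.2% of cells. *RBP4*, the carrier protein of retinol, had medians of 68.2 and 257 CPM and means of 350 and 737 CPM (-1.07). *PCSK1*, a proprotein convertase, had means of 28.3 and 58.9 CPM (-1.03). The difference in *RBP4* was thus also one of the typical cell, while *SLPI* and *PCSK1* were without reads in most cells of both groups.

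*ANTXR2*, a receptor for collagen and laminin fragments, had means of 24.5 and 52.4 CPM (-1.07), and -0.76 without cluster 2. For *IL1RAP*, the co-receptor of interleukin-1, the means were 77.0 and 152 CPM (-0.97), and for *TIPARP*, an ADP-ribosyltransferase, 54.1 and 97.8 CPM (-0.84). *CAP2*, an actin regulator, *FAM107B* and the calcium-binding *SRI* followed with ratios of -0.83, -0.81 and -0.78. *IL1RAP*, *TIPARP*, *SRI* and *CD44* stayed lower without cluster 2, at -0.42, -0.51, -0.50 and -0.34, which is less than 1.5-fold. *TAC1*, the ninth gene at least 2-fold lower (43.6 against 91.8 CPM, -1.06), was held by 12.3% of negative cells, below the 25% that the naming rule asks for, and is named after its value was seen.

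Fibrous and fibroblast genes other than type I collagen differed little. Of 13 fibrous collagens 10 were listed and 9 passed, with a median of 0.00. *COL1A1* and *COL1A2* were the 2 past 1.5-fold, both lower, where 0.968% of all genes were. *COL12A1* lay just inside at -0.58 and *COL3A1* was at 0.29. Of 18 fibroblast genes 9 passed with a median of -0.03 and none past 1.5-fold, with *POSTN* at 0.41, *SPARC* at 0.26 and *MFAP4* at -0.43. The tendon list had 3 genes that passed, all within 1.5-fold. Of the chondrocyte transcription factors 4 passed, with *SOX9*, the main regulator of cartilage genes, at 448 against 558 CPM (-0.32).

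The other lists gave little or nothing. Of the genes of the ATF4 and endoplasmic reticulum stress response 16 passed with a median of -0.20, 13 of them below 0, where 2097 of all 3203 genes were, and none past 1.5-fold, and *HSPA5*, the chaperone BiP, was at 1752 against 2394 CPM (-0.45). The 8 hypoxia genes that passed had a median of 0.00. Of 9 proteases and inhibitors *TIMP3* was the 1 past 1.5-fold, on the lower side, where 0.968% of all genes were. It was at 873 against 1360 CPM (-0.64), and at -0.13 without *COL1A1* cells. The 4 cycling genes that passed lay between 0.14 and 0.35, and cells with reads of at least 3 of the cycling genes were *PRG4*-positive in 18.2% (16.4 to 20.1), against 16.4% of the others (14.6 to 18.2), intervals that overlap. The clock (3 passed), glucocorticoid (4), Wnt (1), metallothionein (1) and mitochondrial (13) lists held no gene past 1.5-fold, and the mitochondrial genes lay between -0.10 and 0.04.

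**Figure D4:**
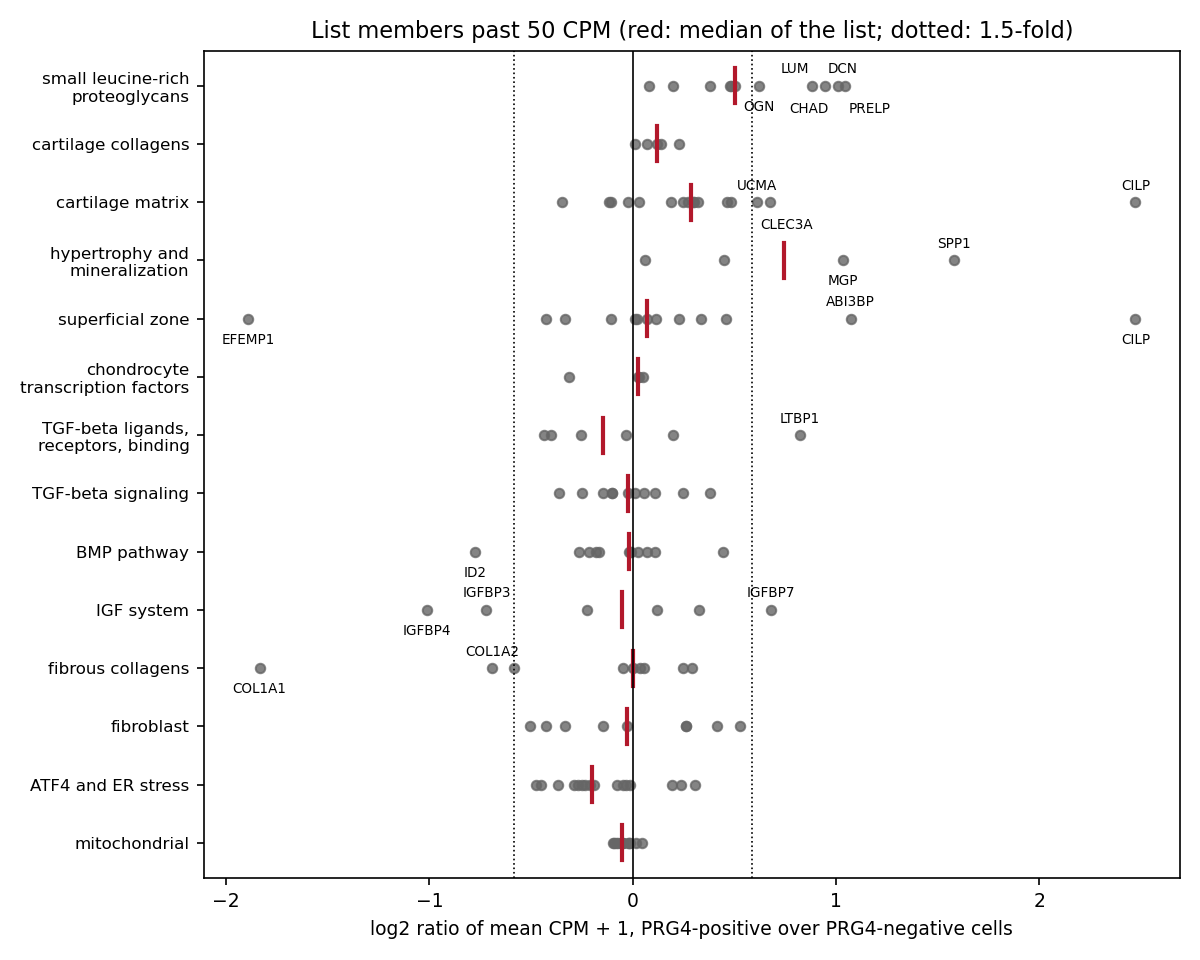
Each grey point is a gene that passed 50 CPM, placed by its log2 ratio of mean CPM + 1 in *PRG4*-positive over *PRG4*-negative cells (x axis) in the row of its list, with the median of the list in red and 1.5-fold as dotted lines. The small leucine-rich proteoglycans all lie above 0 with a median of 0.50, while the superficial zone list runs from *EFEMP1* at -1.89 to *CILP* at 2.47.

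The markers of other cell types were looked up in the same way. The 8 chondrocyte markers were all present and summed to a mean of 54002 CPM in positive and 48451 CPM in negative cells. All positive cells held at least 3 of them, against 99.4% of negative cells. The 6 fibroblast markers summed to 20995 and 24602 CPM, and 90.0% of positive and 89.3% of negative cells held at least 3 of them. Holding 3 markers of a list thus does not tell cartilage cells from fibroblasts here. Pluripotency (6.47 and 8.19 CPM), immune (13.5 and 15.6 CPM), endothelial (0.443 and 0.989 CPM), muscle (18.5 and 22.4 CPM) and adipocyte markers (8.63 and 9.89 CPM) were near 0 in both groups, with *PTPRC*, *C1QA*, *EMCN*, *MYF5*, *PAX7*, *FABP4* and *LEP* at 0 reads in positive cells. Neural (60.1 and 65.7 CPM), glial (73.1 and 76.0 CPM), epithelial (29.3 and 32.2 CPM) and mural markers (157 and 127 CPM) were at like levels in both. The osteoblast list was higher, at 1101 against 372 CPM, through *SPP1*, while *SP7* and *IBSP* had 0 reads in positive cells. Of the 5 fibroblast markers that passed, 2 were at least 1.5-fold lower in positive cells, where 0.968% of all genes were. These were *COL1A1* and *COL1A2*, which are among the genes that lead cluster 2, and the other 3 had ratios above 0. Cells of the synovial lining also make lubricin, and whether the organoid holds such cells was not tested.

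Within the positive cells, the leading genes were followed over the *PRG4* level, in a low (203 cells, 166 to 1157 CPM), a middle (203 cells, 1164 to 3476 CPM) and a high class (204 cells, 3536 to 68334 CPM). The low class had a median of 77164 reads per cell, against 53737 and 53480 in the middle and high classes, so low levels were read mostly in deep cells. *CILP* went from 15.5 CPM in negative cells to 32.9, 76.3 and 162 CPM over the 3 classes, and its share of cells with reads went from 24.1% to 34.5% and 44.1%. *PRELP* went from 362 to 607, 722 and 908 CPM, *DCN* from 167 to 296, 311 and 405 CPM, and *LUM* from 627 to 977, 1118 and 1371 CPM. All 4 were already higher in the low class than in negative cells and were higher again in each further class.

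*COL1A1* went the other way, from 7631 CPM in negative cells to 3378, 1683 and 1357 CPM, and so did *IGFBP4*, from 448 to 275, 210 and 179 CPM, and *RBP4*, from 737 to 425, 377 and 247 CPM. *SPP1* did not follow the level of *PRG4*, with 366 CPM in negative cells and 1282, 1667 and 343 CPM in the 3 classes. *COL2A1* was at 33555, 33985 and 31701 CPM and hence nearly flat. Of the 15 higher genes 13 rose from low to middle to high, where 16.1% of all genes did. Of the 15 lower genes only 5 fell in that order, where 20.4% of all genes did. The classes are cut on the *PRG4* values that chose the cells, and the genes were picked in the same cells, so these levels are a description and no separate evidence. Over the 610 cells the rank correlation with *PRG4* was weak for every one of these genes, between -0.24 and 0.25. These points share 1 library, and depth differs between the classes.

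**Figure D5:**
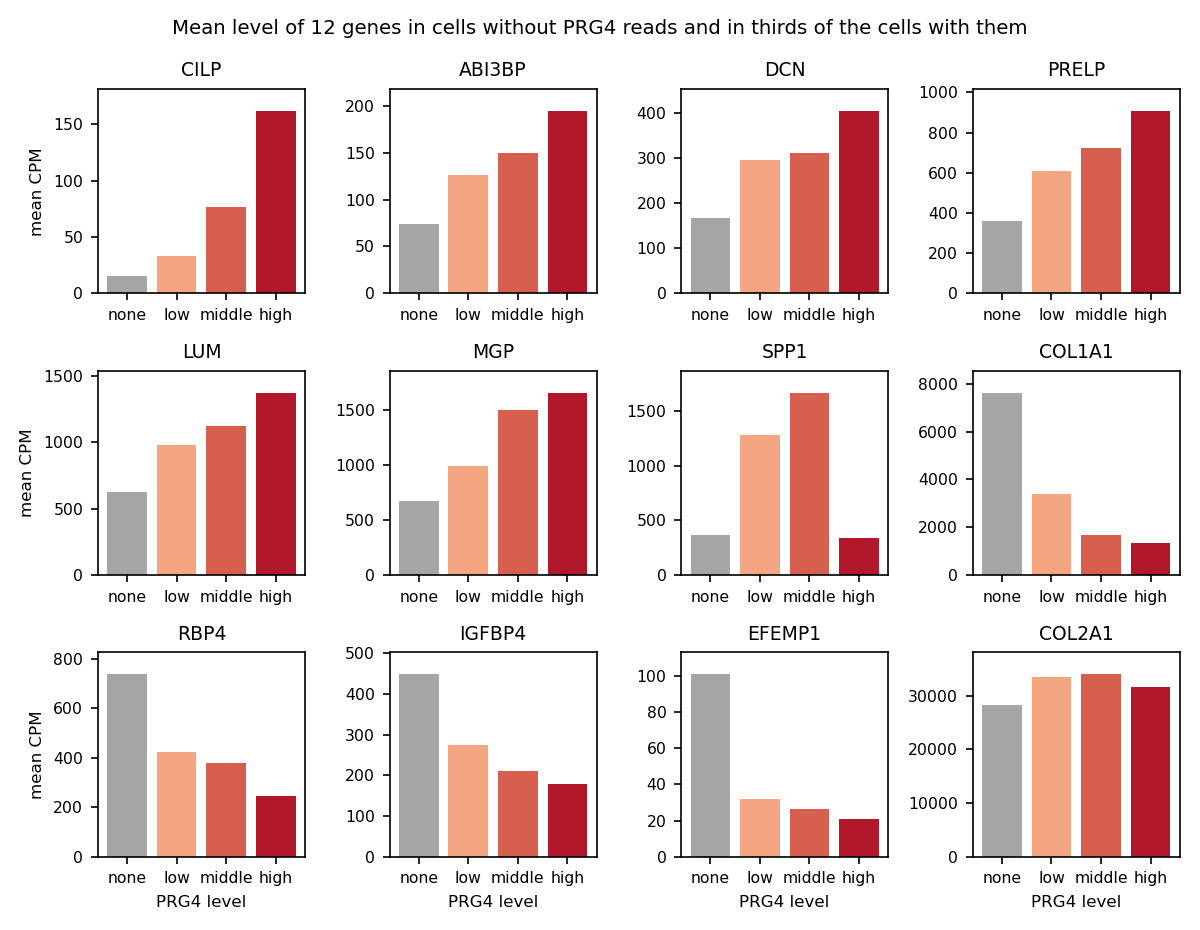
Bars give the mean level in CPM (y axes from 0, a scale of its own in each panel) of 12 genes, picked for display after their values were seen, in *PRG4*-negative cells (none) and in the low, middle and high classes of *PRG4*-positive cells. *CILP* climbs from 15.5 to 162 CPM and *COL1A1* falls from 7631 to 1357 CPM, while *SPP1* peaks in the middle class.

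The differences were also taken within clusters, in the 3 that held at least 50 positive cells. These clusters, 0, 1 and 3, hold most of the positive cells on which the genes were chosen, so that the direction within them is a description and no separate evidence. *CILP* had ratios of 2.37, 2.39 and 1.33, *MGP* of 0.98, 1.05 and 1.09, *PRELP* of 0.78, 0.85 and 0.79 and *DCN* of 0.87, 0.63 and 0.97. These 4 were higher in each of the 3 clusters, by similar amounts apart from the smaller difference of *CILP* in cluster 3. *SPP1* varied from 0.22 to -0.70 and 0.92, *COL1A1* from -0.42 to 1.46 and -0.94, and *ECM1* from 0.75 to 0.58 and -0.78. *RBP4* was lower in clusters 0 and 1 (-1.15 and -1.45) but not in cluster 3 (0.18), *EGR2* was higher in clusters 0 and 1 (0.91 and 1.20) but not in cluster 3 (-0.35), and *FGF18* was at 0.22, 1.35 and 0.14. *EFEMP1* was lower in all 3 (-1.63, -1.51 and -0.93).

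The same split was then made in samples that the rule did not use. After transplantation 70.9% of the cells held *PRG4* (65.6 to 75.9), as did 97.2% of cyAC cells (94.7 to 98.7) and 87.2% of cyFT cells (83.0 to 90.6). The floor differed, however, since the lowest count in these 3 samples was 1 read against 22 in the pre-transplant cells. At 22 reads or more the shares were 46.9%, 43.4% and 15.9% (150, 139 and 51 of 320 cells), against 16.6% of the 320 pre-transplant cells of the second matrix, of which 300 are also in the first. Post-transplant cells were a library of their own, with a median of 80335.5 reads per cell, while cyAC and cyFT came from 1 shared library with medians of 29699 and 27499.5 reads. Between libraries, the share of *PRG4*-positive cells cannot be told apart from the library and its background. No 2 samples from different libraries shared more than 2 cell numbers.

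In post-transplant cyiPS-Cart, with 227 positive and 93 negative cells, 29 of 2980 genes (0.973%) were at least 2-fold higher and 76 (2.55%) lower, and 177 (5.94%) were at least 1.5-fold higher and 319 (10.7%) lower. Of the 15 genes higher before transplantation, 12 passed 50 CPM there, 11 of them were higher, where 43.9% of all genes were, and 1 was past 1.5-fold. Of the 15 lower genes 6 passed and 3 of them were lower, where 56.1% of all genes were. Most of the upward genes thus kept their direction at a smaller size. *CILP* had means of 820 and 552 CPM (0.57), *PRELP* 2190 and 1632 CPM (0.42), *MGP* 5436 and 4125 CPM (0.40) and *DCN* 6485 and 4902 CPM (0.40). *COL1A1* had means of 6975 and 18260 CPM (-1.39). *RBP4*, lower before transplantation, was at 111 against 78.5 CPM (0.49), and *LTBP1* at 459 against 460 CPM.

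Split at 22 reads, *CILP* was higher and *COL1A1* lower in the cells with at least that many *PRG4* reads in each of the other samples. A count of 22 reads is fewer CPM in a deeper cell, so the groups can differ in depth as well as in *PRG4*. For *CILP* the means were 812 and 680 CPM in post-transplant cells (0.25), 716 and 469 CPM in cyAC (0.61) and 438 and 274 CPM in cyFT (0.67). For *COL1A1* they were 4304 and 15505 CPM (-1.85), 192 and 2583 CPM (-3.75) and 8388 and 26699 CPM (-1.67). *INHBA*, too, was higher in the 3 samples, at 0.82, 1.71 and 0.94. The proteoglycans were less even, with *DCN* at 0.24, 0.49 and 0.06, *PRELP* at 0.16, 0.50 and -0.33 and *LUM* at -0.07, 0.74 and -0.32 in the same order. *SPP1* was at 0.06, -1.41 and -1.64. Of the 15 higher genes, those past 50 CPM were higher in 9 of 12, 10 of 14 and 9 of 13 cases in the 3 samples, where 45.3%, 48.2% and 51.0% of all genes were. Of the 15 lower genes, 5 of 6, 7 of 8 and 6 of 9 were lower, where 54.7%, 51.8% and 49.0% of all genes were.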

How the data were processed

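The deposited matrices hold counts of reads per gene and cell, which the authors made by TAS-Seq: per the submitters' processing notes and the methods, reads were trimmed with cutadapt 3.4 and mapped with Bowtie2 2.4.2 to cynomolgus cDNA and ncRNA of Ensembl, with R 3.6.3 for later steps. Cells above the inflection of the knee plot were kept, samples of the first matrix were told apart by hashtag, counts taken for diffused background were set to 0 for genes whose log2 maximum passed 8, and a mitochondrial filter was applied. The second matrix was reduced by the authors to 320 cells per sample. Whether the background step sets the floor of *PRG4* and *COL1A1* counts was not tested. The condition behind each hashtag was taken from the labels with the code supplied with the paper. Hashtag libraries were not used here.

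Counts of each cell were scaled to counts per 1000000 reads (CPM), and log2 ratios of mean CPM + 1 were taken for genes whose mean reached 50 CPM in 1 of the groups or both. A gene counted as past the fold at 2-fold and at 1.5-fold. The cells, and the 37 gene lists, were chosen with earlier results of these data known. Genes named were the 15 per direction with the largest ratio among those detected in 25% or more of the higher group's cells, and members of the lists. Cells were clustered without *PRG4* (2000 variable genes, 30 principal components, 20 neighbors, Leiden resolution 0.5). Doublets were neither called nor removed here. The ratio was tested on simulated data with 200 changed genes of 3122, and the direction was right for 100% of them, with a median absolute error of 0.0387. Whether that error holds for genes with reads in few cells, such as *CILP*, or for genes with a count floor was not tested. The counts of genes past the fold, the share of positive cells and the ratios of the main named genes were computed again under up to 16 other settings and under up to 3 more chosen after seeing the data (a split at 22 reads in the other samples, leaving out the top 1% of cells for a gene, and leaving out cluster 2). Of 13950 symbols 94.9% matched RefSeq names. Python 3.11.15, numpy 2.4.6, pandas 2.3.3, scipy 1.17.1, scanpy 1.11.5, leidenalg 0.10.2, R 4.3.3 and edgeR 4.0.16 (TMM factors only) were used.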

Additional observations from a re-analysis of the deposited data

How the results depend on the processing

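Over 18 other settings, 14 of the 15 higher and 13 of the 15 lower genes kept their direction in each, and 10 and 9 of them stayed past 1.5-fold in each. The filters could not change a ratio, and the pseudocounts could not change a direction. The other settings mostly reuse the cells on which the genes were chosen, so these counts are no separate evidence. The exceptions in direction were *SPP1* (-0.78 in the 320 cells of the second matrix), *ECM1* (0.56 without *COL1A1* cells and 0.047 without cluster 2) and *COL1A1*, which cannot be compared without its own cells. In the second matrix *DCN* (0.53), *EGR2* (0.24), *ADAMTSL2* (0.27), *CCDC80* (0.53), *OGN* (0.44), *SRI* (-0.57) and *TIMP3* (-0.53) were within 1.5-fold. Without *COL1A1* cells so were *CLEC3A* (0.48), *UCMA* (0.35), *IL1RAP* (-0.44), *TIPARP* (-0.55), *SRI* (-0.52), *CD44* (-0.25), *IGFBP3* (-0.55) and *TIMP3* (-0.13), and without cluster 2 *COL1A1* (-0.39), *IL1RAP* (-0.42), *TIPARP* (-0.51), *SRI* (-0.50) and *CD44* (-0.34). *TIMP3* was also within 1.5-fold without cycling cells (-0.52) and with the median of all genes set to 0 (-0.58), and *COL1A2* with TMM factors (-0.57). Among genes within 1.5-fold, *CHI3L1* (0.21) and *SMAD7* (0.15) were above 0 and *COL2A1* (-0.01) below it without *COL1A1* cells, and *SMAD7* was at 0.29 in the second matrix, where *ID2* was at -2.21. *SIK3* was at 0.02 without cycling cells. *COL1A2*, named with its list, turned to 0.34 without *COL1A1* cells and 0.12 without cluster 2. The counts of genes past the fold moved by more than 1.5 times as follows, with 6 and 9 genes at least 2-fold higher and lower and 33 and 31 at 1.5-fold as reported. A filter of 10 CPM, which lets 7193 genes in, gave 20 and 23 at 2-fold and 93 and 115 at 1.5-fold. A filter of 1 CPM (10349 genes) gave 32 and 59, and 202 and 340. A filter of 200 CPM (795 genes) gave 3 lower at 2-fold, and 19 and 12 at 1.5-fold. Both TMM factors and a pseudocount of 10 CPM gave 5 lower at 2-fold. Cells with at least 100 *PRG4* reads gave 16 higher at 2-fold and 54 and 54 at 1.5-fold, the second matrix 18 and 33, and 151 and 216. Without *COL1A1* cells 18 were lower at 1.5-fold, and without cluster 2, a setting chosen after seeing the data, 5 were lower at 2-fold and 13 at 1.5-fold. Except for the filters, which change the genes compared, the cause was not tested. The share of *PRG4*-positive cells was 9.10% at 100 reads or more, 20.2% without *COL1A1* cells and 20.4% without cluster 2.

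With 1 sample per condition, no difference between cells has a replicate check, and the spread between organoids or animals is unknown. Reads are not molecules, so counting intervals are too narrow. No organoid cell was listed with 1 to 21 *PRG4* reads, so levels below that floor were not measured. No paired analysis was possible because the result comes from no test.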

Other observations

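Further genes past 1.5-fold lay outside the naming rule and the lists, and those given here were chosen after their values were seen. Among secreted proteins that were higher in *PRG4*-positive cells, *ELN*, which encodes elastin, had means of 616 and 362 CPM (log2 ratio 0.77). *IL11*, a cytokine of the interleukin-6 family, was at 324 and 200.3 CPM (0.69), and *TNFRSF11B*, osteoprotegerin, a decoy receptor that limits osteoclast formation, at 418 and 259 CPM (0.69). *DLK1*, a Notch-related protein of progenitor cells, was at 7085 and 4635 CPM (0.61).

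Among genes that were lower, the collagen-binding integrin chain *ITGA11* had means of 90.3 and 145 CPM (-0.68), the laminin-binding chain *ITGA6* 153 and 238 CPM (-0.64), and the gap junction protein *GJA1* 305 and 487 CPM (-0.67). The netrin receptor *UNC5B* was at 120.0 and 200.03 CPM (-0.73), and *HMOX1*, heme oxygenase, at 166 and 264 CPM (-0.66).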
